A study of Canis lupus familiaris with 29 samples.

Results

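PD-98059, an inhibitor of the kinase MEK, was given together with hepatocyte growth factor (HGF) to MDCK type II cells grown in 3D collagen, and these cells were compared with cells given HGF alone in the same culture. MDCK type II is an established line of dog kidney tubule epithelium. The comparison took the 3 arrays titled for 3D culture with HGF and PD-98059 and the 4 titled for 3D culture with HGF, 7 of the 29 arrays in all. Beside them stood 4 arrays of untreated 3D cells, 3 of 3D cells with HGF and U0126, a second MEK inhibitor, and 8 arrays of 2D cells, 4 with HGF and 4 with HGF and PD-98059. All groups are the same cell line with no genetic change named. The labels give neither doses nor treatment times, and no array had the inhibitor without HGF, so every effect of PD-98059 is one in the presence of HGF. The labels do not say whether replicates were separate cultures, so the p-values measure only the spread between arrays, and that spread may be technical.

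HGF is a secreted ligand that binds the receptor tyrosine kinase MET. MET signals through RAS, RAF, MEK and ERK, among other branches, and ERK drives immediate early genes such as FOS and EGR1 as well as genes that feed back on the pathway, such as the DUSP phosphatases. In collagen, MDCK cells form hollow cysts, and HGF makes the cysts extend and branch into tubules, with cell movement and remodelling of matrix. PD-98059 is a flavone that binds MEK and hinders its activation, and U0126 is a substituted butadiene that also acts on MEK.

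Levels are log2 values of Affymetrix probe sets, so 1 unit is a doubling, and "difference" stands for HGF with PD-98059 minus HGF alone on the log2 scale, with its standard error from limma. A gene passed where its Benjamini-Hochberg adjusted p from limma, over 16571 probe sets, was below 0.05, and "rose" and "fell" are used only for such genes. Each gene is given by 1 probe set. A level below log2 5 is called dim, and no fold is given against a dim group, because such levels lie where the deposited values have little resolution.

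The cells of both groups carried the genes of kidney epithelium. Of the markers set for it, EPCAM, KRT8, KRT18, CDH16, TJP1, CLDN4 and CLDN7 were above log2 5, while CDH1, PAX2 and PAX8 were dim on their probe sets in all 7 arrays, at no more than 2.81, 2.73 and 3.29. Summed over the list, the kidney markers had a log2 level of 15.83 to 16.07 with HGF and 16.05 to 16.23 with PD-98059. All 8 fibroblast, 6 leukocyte and 5 endothelial markers were below 5 in the 7 arrays, with summed levels of 5.95 to 6.17, 5.57 to 5.73 and 5.87 to 6.09 with HGF and 5.94 to 6.01, 5.57 to 5.61 and 5.90 to 6.03 with PD-98059. The 4 HGF arrays were less alike (correlation over probe sets 0.964 to 0.991) than the 3 PD-98059 arrays (0.989 to 0.997), and HGF arrays 1 and 4 stood apart from each other. In bulk RNA, fewer cells of a type and less RNA per cell cannot be told apart. An index of RNA quality, the 3' minus the 5' or middle signal of control transcripts, was 1.68 ± 0.583 (SD, n = 4) with HGF and 1.65 ± 0.0246 (SD, n = 3) with PD-98059, and the exact two-sided permutation test gave p = 0.914, where 0.0286 is the smallest that 35 regroupings allow. That test compares means only. HGF arrays 1 and 4 had the highest and lowest index of their group, 2.461 and 1.095, against 1.62 to 1.67 with PD-98059. Whether RNA quality sets these 2 arrays apart was not tested.

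PD-98059 changed a large part of the transcriptome of the HGF-treated cells. Of 16571 probe sets, 4408 were higher with PD-98059 (26.6%) and 2557 lower (15.4%), and 1430 and 635 of all probe sets passed with a change of at least 2-fold. Among 7052 genes, 2037 rose (28.9%), 1073 fell (15.2%) and 3942 did not pass, and the median difference was 0.06. These shares are the background for the counts of each gene list below. In 2744 genes (38.9%) the 3 PD-98059 arrays and the 4 HGF arrays did not overlap. The split between higher and lower probe sets depends on the scaling: 63.3% of passing probe sets were higher on the deposited values, 50.9% after quantile normalization and 46.8% after centring each array on its median, which moved the median difference to -0.083. Fitted on the 7 compared arrays alone, with fewer arrays and without the spread of the other groups, 2869 probe sets were higher and 1496 lower. Standard errors and p-values in the text use a spread shared by all 29 arrays. The mean absolute deviation from the group mean was 0.167 to 0.311 in the HGF arrays. It was 0.116 to 0.163 in the PD-98059 arrays. For comparisons with the 3D HGF group, these standard errors and p-values can therefore be too small.

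**Figure D1:**
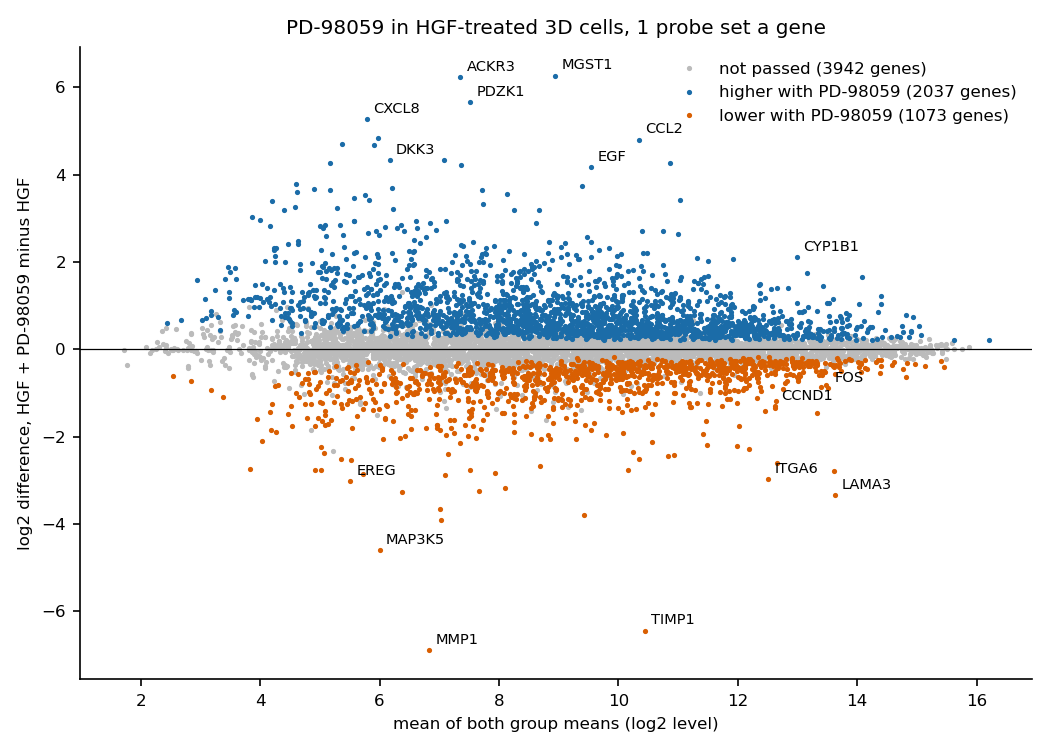
Each point is 1 of 7052 genes. The x axis is its mean log2 level over the HGF and HGF with PD-98059 groups in 3D, and the y axis is the log2 difference, with genes that passed limma's test coloured. Among the coloured genes 2037 lie above 0 and 1073 below, and the largest differences reach 6.26 for MGST1 and -6.89 for MMP1.

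Genes that report on ERK activity were lower with PD-98059. Of the 11 tested genes of a list of MEK-ERK targets, 8 fell, none rose and 3 did not pass, with a median difference of -0.80 against 0.06 over all genes. DUSP5, a phosphatase that acts on ERK in the nucleus, was at 9.21, 10.16, 10.07 and 10.23 in the HGF arrays and at 8.19, 8.33 and 8.49 in the PD-98059 arrays. The groups did not overlap, and the difference was -1.58 ± 0.21, or 2.99-fold (adjusted p = 1.07e-06). CCND1, the cyclin D1 that carries cells through G1, was at 13.43, 13.30, 13.34 and 13.04 with HGF and 11.78, 12.09 and 12.07 with PD-98059, and fell by 2.46-fold (difference -1.30 ± 0.13, adjusted p = 4.46e-09).

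Other targets moved by different amounts. The receptor tyrosine kinase EPHA2 fell by 2.75 on the log2 scale to a dim level that matched the control arrays, with 4.16 to 6.64 in the HGF arrays and 2.43 to 2.48 with PD-98059. TNFRSF12A, the receptor for TWEAK, fell by 2.26-fold, and MYC, a transcription factor of growth, fell by 1.68-fold. DUSP6, the cytoplasmic ERK phosphatase, fell the least: it was at 13.80, 13.69, 13.90 and 13.46 with HGF and at 13.33, 13.36 and 13.43 with PD-98059, a fold of 1.27 (adjusted p = 0.00644). That call and the one of PHLDA1 (difference -0.81 ± 0.22) were lost when only the 7 compared arrays were fitted, with adjusted p = 0.0579 and 0.0851, and only 5 of the 11 targets passed there; PHLDA1 also lost its call without PD-98059 array 1 (difference -0.50, adjusted p = 0.0738). IER3 was at 9.57 to 10.14 with HGF and 9.20 to 9.66 with PD-98059 and did not pass (adjusted p = 0.0711), though it passed without HGF array 4 (adjusted p = 0.028), after quantile normalization (0.0269) and after median centring (0.0165).

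The targets did not all come back to the level of untreated cells. Set against the 4 control arrays, cells with HGF and PD-98059 had 1711 genes higher (24.3%) and 1199 lower (17.0%) of 7052, and 7 of the 11 MEK-ERK targets were among the higher ones, with none lower. Both comparisons use the same 3 PD-98059 arrays. The RNA-quality index was 1.71 to 2.15 in control arrays and 1.62 to 1.67 with PD-98059. Its part in the comparison with control was not tested. DUSP5 was at 7.49 to 7.90 in control arrays, below every PD-98059 array. HGF alone had moved 2134 genes up (30.3%) and 2332 down (33.1%) against control, and 10 of the 11 targets up.

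Immediate early genes, which encode transcription factors that ERK and other kinases induce within minutes, mostly fell. Of 10 tested members, 8 fell and none rose, with a median difference of -0.87. JUN, a subunit of AP-1, was at 11.70, 11.28, 11.78 and 11.68 with HGF and at 9.56, 8.73 and 8.99 with PD-98059. The 2 groups stood well apart, by 5.71-fold (difference -2.51 ± 0.26, adjusted p = 9.6e-09), and the PD-98059 arrays lay below all control arrays, which were at 9.96 to 10.41. FOS, its AP-1 partner, fell by 1.85-fold, from 13.78 to 14.10 with HGF to 12.89 to 13.30 with PD-98059 (difference -0.89 ± 0.10, adjusted p = 8.63e-08). KLF6, a zinc finger factor, fell by 3.24-fold and KLF4, another member of that family, by 1.99-fold. EGR1 was at 7.18, 5.23, 5.71 and 5.22 with HGF and dim at 4.41, 4.20 and 4.41 with PD-98059. Against control, 8 of the 10 members were lower with HGF and PD-98059 and none was higher.

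The parts of the pathway itself were counted beside all genes. Of 16 tested genes of the HGF, MET and RAS-ERK cascade, 3 rose and 4 fell, with a median of -0.18, where 28.9% of all genes rose and 15.2% fell. None of the 16 passed limma's test when the 7 compared arrays were fitted alone, where 2 were higher and 2 lower at an unadjusted p below 0.05. Without HGF array 1, PD-98059 array 1 or PD-98059 array 3 only 1 rose, and without PD-98059 array 2 only 1 fell. MET, the HGF receptor, was at 8.36, 8.72, 9.07 and 9.47 with HGF and 8.60, 8.42 and 8.60 with PD-98059, so that the groups overlapped (difference -0.36 ± 0.18, adjusted p = 0.102). Without HGF array 1 the difference in MET was -0.55 and passed (adjusted p = 0.00729), as it did after quantile normalization (-0.48) and median centring (-0.50).

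**Figure D2:**
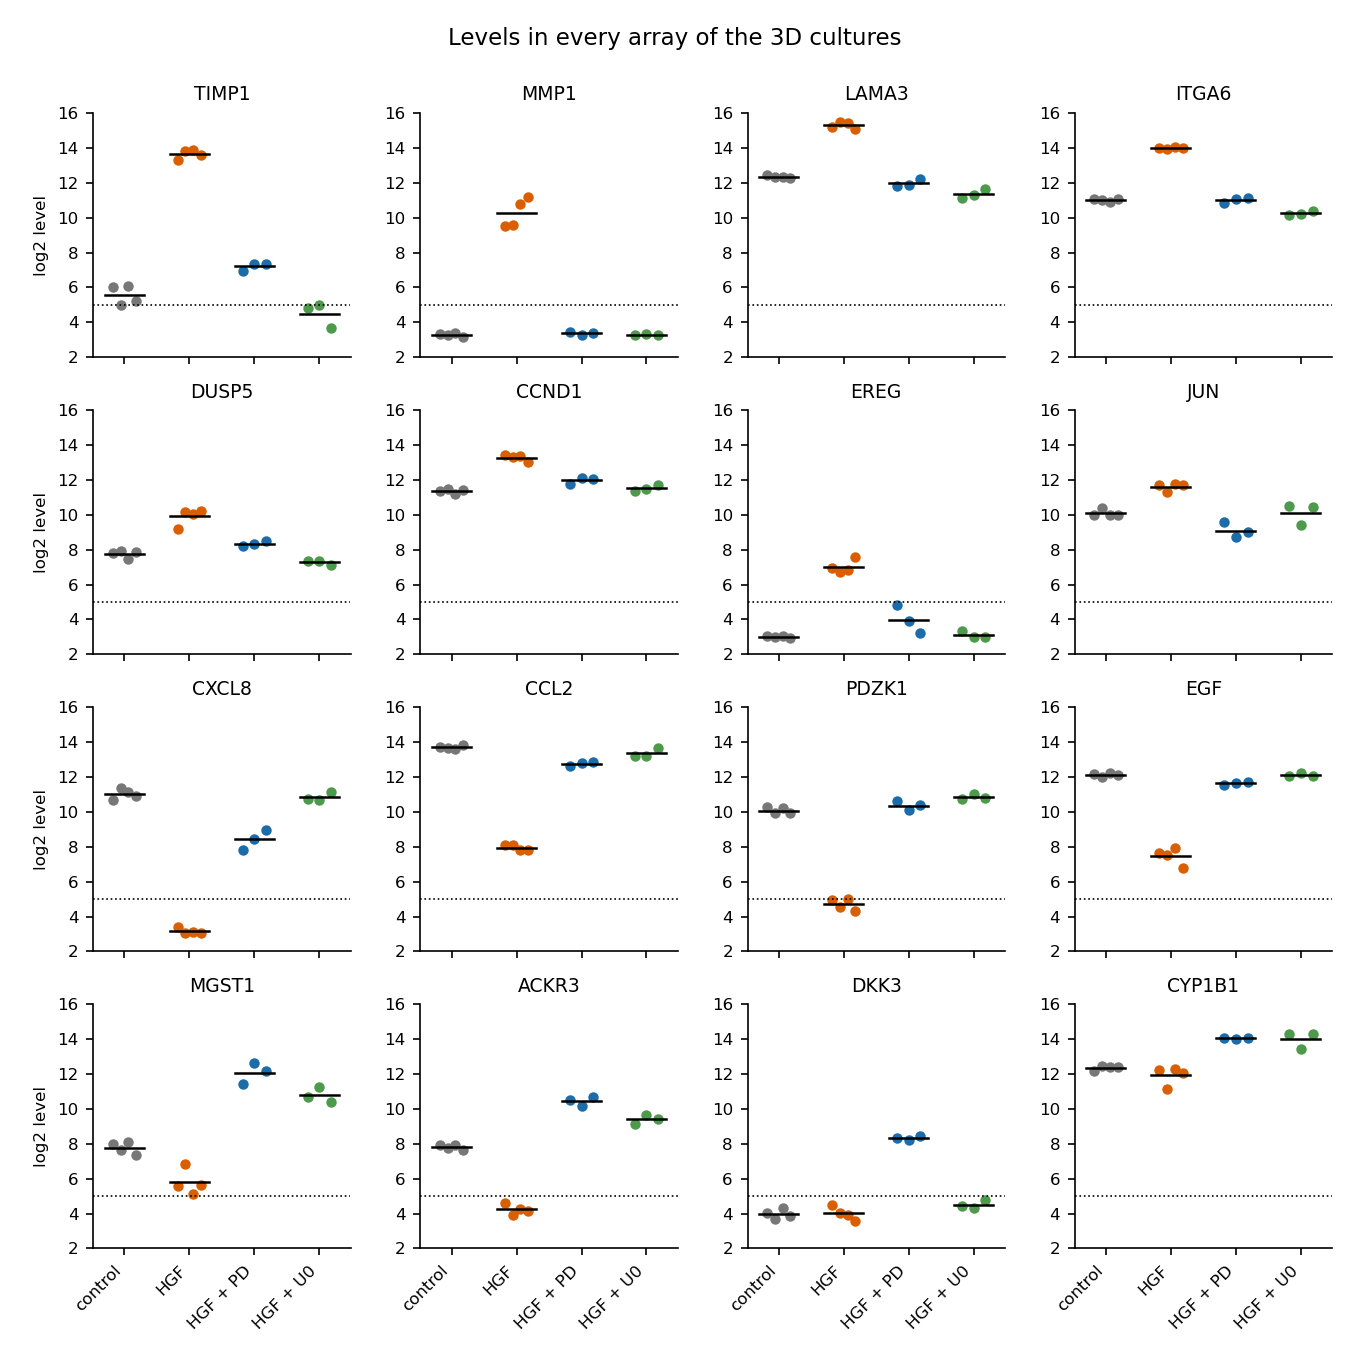
Log2 level of each array (points) and group mean (bar) in 3D culture for control, HGF, HGF with PD-98059 and HGF with U0126, with a dotted line at the dim limit of 5. MMP1 and TIMP1 are high with HGF alone, DKK3 is above the dotted line only with PD-98059, and PDZK1, CXCL8, CCL2 and EGF are low with HGF alone.

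The largest falls were in the enzymes and inhibitors that act on matrix. MMP1, the interstitial collagenase, was at 9.54, 9.59, 10.81 and 11.17 in the HGF arrays and dim in every other 3D array, at 3.47, 3.29 and 3.39 with PD-98059 and 3.15 to 3.41 in control. Its difference was -6.89 ± 0.48 (adjusted p = 1e-11). TIMP1, the secreted inhibitor of metalloproteinases, was at 13.30, 13.85, 13.90 and 13.61 with HGF and at 6.97, 7.36 and 7.33 with PD-98059. It fell by 87.1-fold (difference -6.45 ± 0.30, adjusted p = 4.66e-15) and remained 1.63 above control, whose highest array was at 6.07.

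MMP13, another collagenase, behaved unlike MMP1, as it was already at 12.39 to 12.69 in control. It was at 12.93, 12.81, 13.22 and 13.39 with HGF and 11.06, 10.58 and 11.01 with PD-98059, below control. The urokinase PLAU, a serine protease that activates plasminogen, fell by 3.33-fold. MMP9, a gelatinase, went the other way, from 6.61, 7.06, 6.80 and 6.27 with HGF to 8.65, 8.84 and 9.15 with PD-98059, 4.57-fold (difference 2.19 ± 0.26, adjusted p = 1.72e-07). Its control arrays were at 8.81 to 8.98, within the range of the PD-98059 arrays. In all, 6 of 13 tested proteases and inhibitors fell and 2 rose, MMP9 and TFPI2, with a median of -0.53.

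Laminin and integrin genes fell with them. LAMA3, the alpha chain of a laminin of the epithelial basement membrane, was at 15.21, 15.49, 15.43 and 15.07 with HGF and 11.82, 11.89 and 12.19 with PD-98059, a fall of 10.1-fold (difference -3.34 ± 0.12, adjusted p = 2.24e-17). ITGA6, the integrin chain that binds laminin, was at 13.99, 13.94, 14.08 and 13.98 with HGF and at 10.85, 11.09 and 11.13 with PD-98059. The fall of ITGA6 was 7.86-fold, and the PD-98059 arrays covered the same range as control, at 10.89 to 11.09, although its other probe sets ranged from -4.53 to 0.07. LAMB3, another chain of that laminin, fell by 2.91-fold. ITGB1, the common beta chain, fell by 3.86-fold on its probe set, while its other probe set moved by 0.01. Of 16 tested matrix and adhesion genes 8 fell and 2 rose, COL5A1 by 2.44-fold and THBS1, with a median of -0.42.

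Genes known for the mesenchymal state fell in the main, with exceptions. All 9 tested members passed, 7 lower and 2 higher, and the median was -0.85. Across the alternatives 5 to 7 were lower and 2 higher, with medians of -1.05 to -0.58. Only 5 were lower on the 7 compared arrays alone, and likewise without PD-98059 array 3. CDH2, N-cadherin, was at 8.68, 7.83, 8.30 and 7.25 with HGF and dim at 4.69, 4.90 and 4.64 with PD-98059, near the control range of 4.60 to 5.14. SNAI2, the repressor Slug, was at 12.60, 13.09, 13.13 and 12.76 with HGF and 10.94, 11.10 and 11.37 with PD-98059, and fell by 3.38-fold, staying above the control arrays at 10.02 to 10.41. ZEB1 fell by 1.41 on the log2 scale to a dim level and the fibronectin gene FN1 by 2.16-fold. VIM, the filament protein vimentin, fell by 0.26 on the log2 scale (adjusted p = 0.0424), a call that 10 alternatives lost, HGF arrays 1 and 2 left out in turn among them. ACTA2, smooth muscle actin, rose from 6.59, 3.05, 5.46 and 4.56 to 8.99, 9.18 and 9.54 (difference 4.32 ± 0.41). Its HGF arrays spread far more than its PD-98059 arrays, so this standard error, from the shared spread, can be too small. The ACTA2 difference was 3.70 when HGF array 2 was left out and 4.98 without HGF arrays 1 and 4. Its adjusted p from limma was 3.1e-09, and as high as 0.00417 among the alternatives. S100A4 rose by 1.74-fold. TAGLN, another gene of contractile actin, rose by 3.60-fold, while the actin crosslinker ACTN1 fell by 3.48-fold.

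Junction genes of the epithelium were mixed. Of 23 tested, 6 rose, 3 fell and 14 did not pass, with a median of 0.13, near the shares of 28.9% and 15.2% over all genes. CGN, cingulin of the tight junction, rose by 2.80-fold and OCLN, occludin, by 1.63-fold. CLDN2, the claudin of leaky tight junctions, was dim with HGF at 3.40 to 3.82 and with PD-98059 at 4.33 to 4.93, and reached 5.99 to 6.25 in control. DSC2, a desmosomal cadherin, fell by 6.10-fold, PARD3, a polarity scaffold, by 2.50-fold and TJP3 by 2.21-fold. DSG3, a desmosomal cadherin of stratified epithelium, fell by 9.55-fold, from 8.78 to 9.64 with HGF to 5.97 to 6.09. Against control, 9 of the 23 were lower with HGF and PD-98059 and none was higher.

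Other genes among the 15 largest falls have roles outside the matrix. GPC3, a cell-surface heparan sulfate proteoglycan, was at 9.08, 9.19, 9.08 and 8.59 with HGF and 4.87, 5.31 and 5.02 with PD-98059, a fall of 15.1-fold, and its control arrays were at 4.98 to 5.45. MAP3K5, the stress kinase ASK1, was at 9.31, 6.48, 8.78 and 8.64 with HGF and dim at 3.72, 4.04 and 3.37 with PD-98059. The spread of its HGF arrays makes the difference of -4.59 ± 0.60 less certain than that of GPC3, and it was -5.20 without HGF array 2 and -3.92 without HGF arrays 1 and 4. PDK4, a kinase that restrains pyruvate entry into mitochondria, fell by 9.09-fold and PFKFB3, which drives glycolysis through fructose 2,6-bisphosphate, by 7.10-fold. ANTXR2, a receptor for matrix and anthrax toxin, fell by 13.9-fold and MALL by 7.37-fold. TENT5A and SNAP91 complete this set, with differences of -3.67 and -2.87.

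Ligands and regulators of the EGF receptor moved in opposite directions. EREG, the ligand epiregulin, was at 6.94, 6.72, 6.86 and 7.56 with HGF and dim at 4.84, 3.90 and 3.23 with PD-98059 (difference -3.03 ± 0.27). ERRFI1, a feedback inhibitor of the EGF receptor, was at 15.01, 14.93, 15.17 and 14.94 with HGF and 12.33, 12.16 and 12.19 with PD-98059, a fall of 6.89-fold (adjusted p = 5.14e-15). EGF itself, which kidney tubules make as a membrane precursor, was at 7.63, 7.54, 7.90 and 6.78 with HGF and at 11.56, 11.63 and 11.69 with PD-98059. EGF rose by 17.9-fold (difference 4.17 ± 0.16, adjusted p = 7.33e-17) to just under its control arrays, at 12.00 to 12.23. The receptor ERBB3 rose by 3.84-fold and the ligand NRG1 by 1.50-fold. Of the 7 tested genes of this family 3 rose and 2 fell.

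Genes of tubule transport were higher with PD-98059 or did not pass. Of 13 tested, 6 rose, none fell and the median was 0.43. After median centring 1 was lower. The median of this list was 0.11 after quantile normalization and 0.26 with the mean of each gene's probe sets. PDZK1, a scaffold for transporters at the brush border, was at 4.93, 4.52, 5.03 and 4.29 with HGF and at 10.60, 10.08 and 10.38 with PD-98059. The PD-98059 arrays of PDZK1 overlapped the control range of 9.91 to 10.25, and its difference was 5.66 ± 0.22 (adjusted p = 7.53e-17). GGT1, the brush border gamma-glutamyltransferase, was at 7.94, 7.87, 7.70 and 7.93 with HGF and 10.05, 10.28 and 10.31 with PD-98059, a rise of 5.11-fold. FXYD2, the gamma subunit of the sodium pump, rose by 3.21-fold and CA2, carbonic anhydrase 2, by 1.71-fold. Against control, 4 of the 13 were lower with HGF and PD-98059 and none was higher.

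Growth factors of tubule formation gave no common direction, with 2 of 10 higher and 3 lower. BMP2, a secreted morphogen, was at 12.67, 11.30, 12.14 and 12.13 with HGF and 10.47, 9.29 and 9.07 with PD-98059 (difference -2.45). BMP7 fell by 1.70-fold, and the receptor FGFR2 rose by 2.00-fold. DKK3, a secreted protein of the Dickkopf family, was dim with HGF at 4.49, 4.05, 3.91 and 3.58 and in control at 3.67 to 4.30, and was at 8.34, 8.23 and 8.43 with PD-98059. Its difference was 4.32 ± 0.25 (adjusted p = 2.62e-13).

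The chemokines CXCL8, CCL2 and CCL7 were higher with PD-98059 than with HGF alone, and lower than in control. CXCL8, which attracts neutrophils, was dim at 3.40, 3.07, 3.09 and 3.05 with HGF and at 7.82, 8.47 and 8.97 with PD-98059, still below the control arrays at 10.69 to 11.38 (difference 5.27 ± 0.18, adjusted p = 1.14e-17). CCL2, which attracts monocytes, was at 8.08, 8.09, 7.83 and 7.79 with HGF and 12.62, 12.77 and 12.85 with PD-98059. It rose by 27.9-fold (difference 4.80 ± 0.27, adjusted p = 1.91e-13) and its control arrays were at 13.58 to 13.85. CCL7, a related chemokine, was dim at 3.16 to 3.93 with HGF and at 8.18 to 8.70 with PD-98059. SAA1, an acute phase protein, was at 5.68, 3.26, 5.27 and 3.67 with HGF and at 6.51, 6.61 and 6.91 with PD-98059. Of 13 tested inflammatory genes 7 rose, ICAM1 alone fell, by 1.63-fold, and the median was 0.48. Against control 10 of the 13 were lower with HGF and PD-98059 and 1 was higher, with a median of -1.06.

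Most tested interferon response genes rose. Of 13 tested, 9 rose and 1 fell, with a median of 0.65, and against control 11 were lower with HGF and PD-98059 and none was higher, with a median of -0.84. After quantile normalization 6 were higher and 2 lower than with HGF alone, with a median of 0.43. On the 7 compared arrays alone 7 were higher and 1 lower. PSMB9, a subunit of the immunoproteasome, was at 9.90, 9.87, 9.84 and 9.54 with HGF and 11.82, 11.51 and 11.82 with PD-98059, a rise of 3.81-fold (adjusted p = 3.85e-13), below the control arrays at 12.44 to 12.60. TAP1, the peptide transporter of antigen presentation, rose by 3.10-fold and ISG15, a ubiquitin-like protein, by 1.96-fold. IFI44L was dim with HGF at 4.43 to 4.87 and at 6.48 to 7.01 with PD-98059. OAS2, which senses double-stranded RNA, was the member that fell, by 1.55-fold.

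Several of the largest rises were in enzymes of detoxification and lipid handling. MGST1, a membrane glutathione transferase, was at 5.57, 6.85, 5.15 and 5.66 with HGF and 11.40, 12.63 and 12.18 with PD-98059, 76.8-fold (difference 6.26 ± 0.31, adjusted p = 1.15e-14), and control arrays lay between, at 7.37 to 8.13. CYP1B1, a cytochrome P450 induced by the aryl hydrocarbon receptor, was at 12.24, 11.12, 12.30 and 12.06 with HGF and 14.08, 13.98 and 14.05 with PD-98059. It rose by 4.32-fold (difference 2.11 ± 0.22, adjusted p = 1.21e-08) and was also 1.67 above control, at 12.19 to 12.46. UGT1A6, a glucuronosyltransferase, was dim with HGF at 2.98, 3.50, 2.70 and 2.91 and at 7.38, 8.01 and 7.80 with PD-98059, and CYP4A11, a fatty acid hydroxylase, rose by 19.2-fold, but both belong to families of near-identical copies that a probe set may not separate. NQO1, a quinone reductase, rose by 1.47-fold from 13.53 to 13.65 to 14.12 to 14.16. Of 9 tested targets of the aryl hydrocarbon receptor and NRF2, 4 rose and none fell (1 was lower after quantile normalization or median centring), and 5 were higher than control. TIPARP, another target of that receptor, was at 8.85, 8.49, 9.48 and 9.82 with HGF and 10.96, 9.65 and 9.76 with PD-98059 and did not pass (adjusted p = 0.0618), but it passed without HGF array 4 (adjusted p = 0.0297) or without PD-98059 array 2 (adjusted p = 0.046).

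The other large rises were of mixed function. ACKR3, a scavenging receptor for CXCL12, was dim with HGF at 4.61, 3.91, 4.26 and 4.17 and at 10.51, 10.19 and 10.71 with PD-98059. Its difference was 6.23 ± 0.20 (adjusted p = 6e-18), and it lay above the control arrays, at 7.65 to 7.94. FABP1, the liver fatty acid binding protein, was dim with HGF at 2.80 to 3.54 and at 7.21 to 7.51 with PD-98059, against 4.12 to 5.19 in control. OSCP1 and FILIP1L rose by 3.77 and 4.22 on the log2 scale, the latter with another probe set at 0.25, and ENOSF1 by 4.68 with another at -0.10. VLDLR, a lipoprotein receptor, rose by 12.5-fold, from 5.61, 5.93, 6.15 and 5.90 to 9.35, 9.42 and 9.85.

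**Figure D3:**
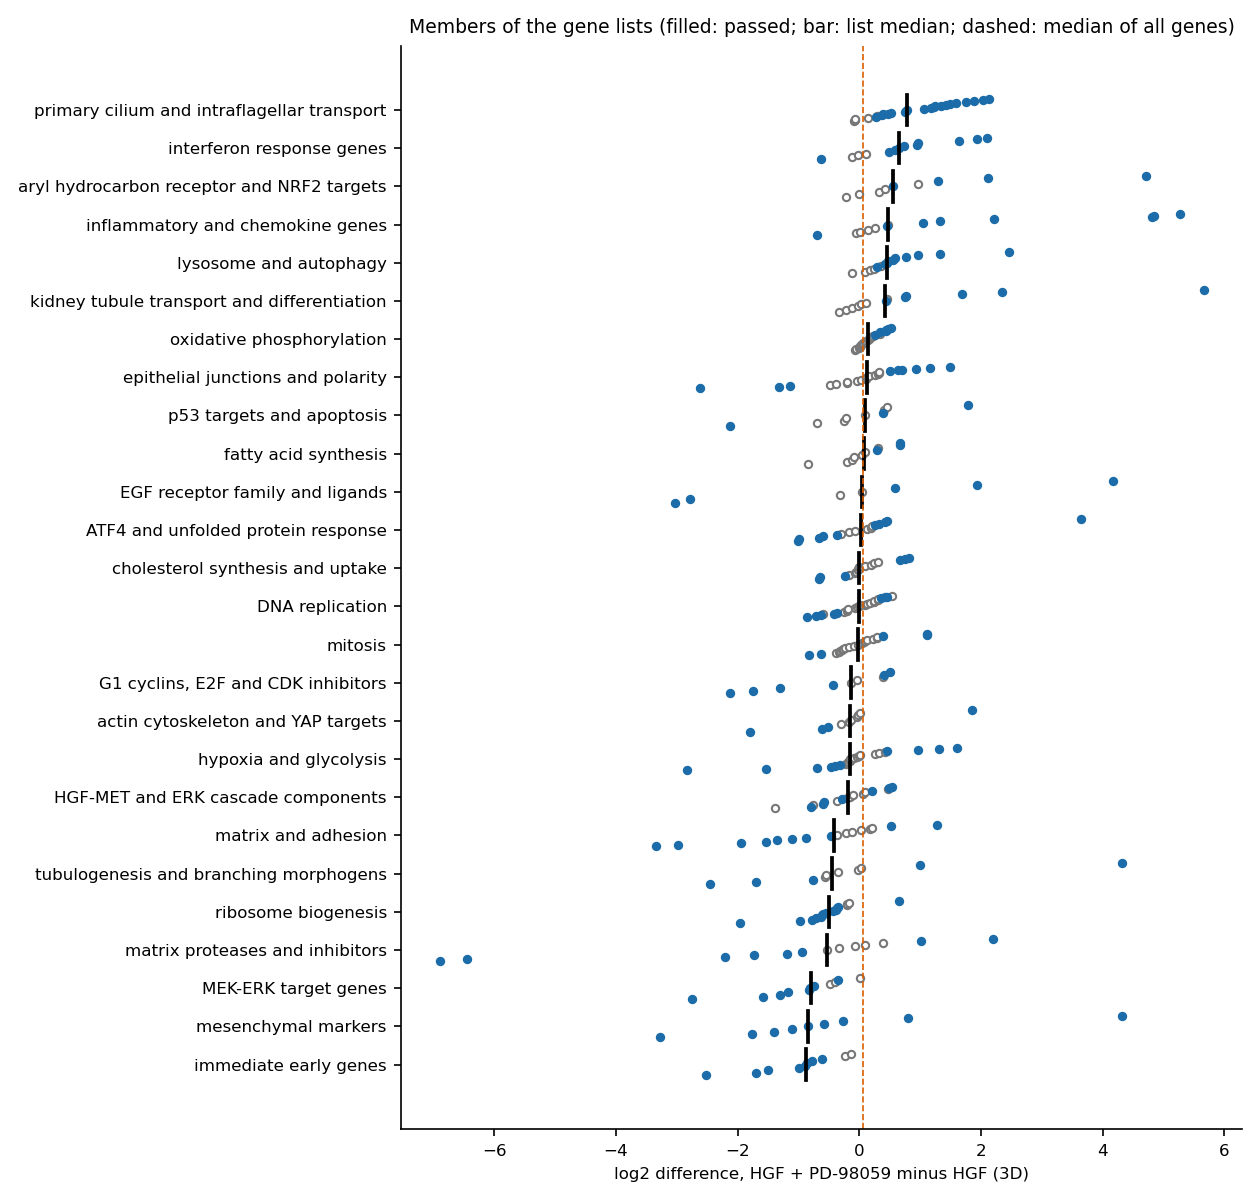
Log2 difference of every tested member of each gene list, filled where the member passed limma's test. The bar is the median of the list and the dashed line the median of all genes, 0.06. The MEK-ERK targets (-0.80), immediate early genes (-0.87) and mesenchymal markers (-0.85) have the lowest medians named here, and the cilium list has a median of 0.79.

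Genes of the primary cilium, the sensory antenna of tubule cells, were higher with PD-98059 as a list. Of 25 tested, 20 rose, none fell and 5 did not pass, with a median of 0.79, and 12 of them passed when the 7 compared arrays were fitted alone. With the mean of each gene's probe sets 1 was lower. DYNC2H1, the motor of retrograde transport, was at 6.95, 6.52, 6.62 and 5.71 with HGF and at 8.43, 8.45 and 8.56 with PD-98059 (difference 2.03). TMEM67, a protein of the transition zone, was at 7.60, 8.26, 7.47 and 7.13 with HGF and 9.42, 9.43 and 9.65 with PD-98059 (difference 1.89). The groups of both genes did not overlap. IFT80 and IFT140, of the transport trains, rose by 2.13 and 1.75, but neither passed on the 7 compared arrays alone (adjusted p = 0.0527 and 0.0832), and IFT80 was at 1.45 without HGF array 1, 1.52 without HGF arrays 1 and 4 and 1.49 with array weights. Against control, 11 of the 25 were lower with HGF and PD-98059 and 1 was higher, with a median of -0.19. HGF alone had 21 of the 25 lower than control.

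Lysosome and autophagy genes rose by smaller amounts. Of 15 tested, 10 rose and none fell, with a median of 0.45, and without HGF array 1 or with array weights there was 1 that was lower. GABARAPL1, which marks autophagosomes, was at 8.52, 8.29, 8.44 and 7.99 with HGF and 10.85, 10.70 and 10.75 with PD-98059, a rise of 5.48-fold. ATP6V1A, a subunit of the proton pump, rose by 2.50-fold, LAMP2, of the lysosomal membrane, by 1.95-fold and CTSZ, a cathepsin, by 1.70-fold. Against control, 7 of the 15 were lower with HGF and PD-98059 and 1 was higher.

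The genes of cell division stayed far above control under PD-98059. Of 25 tested DNA replication genes, 22 were higher in HGF with PD-98059 than in control and none lower, with a median of 0.99, and of 21 mitosis genes 19 were higher and none lower, with a median of 1.06. Against HGF alone, 3 replication genes rose and 5 fell, with a median of -0.01, and 3 mitosis genes rose and 2 fell, with a median of -0.02. CDC45, a part of the replicative helicase, was at 9.41, 9.72, 9.79 and 9.78 with HGF, 8.84, 8.86 and 8.76 with PD-98059 and 6.80 to 7.21 in control, and fell by 1.81-fold. TYMS, which makes thymidylate, rose by 1.38-fold, and ASPM, of the spindle poles, by 2.16-fold. The small counts against HGF shift with single arrays: no mitosis gene was lower without PD-98059 array 2 or array 3, 1 was lower without HGF array 3 or 4, and 5 replication genes were higher without HGF array 4. After median centring 6 mitosis genes were lower.

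Regulators of G1 changed in part. CDKN1A, the CDK inhibitor p21, was at 11.93, 11.60, 11.65 and 11.34 with HGF and 9.52, 9.47 and 9.55 with PD-98059, a fall of 4.34-fold to the control level (difference from control -0.14, 95% interval -0.57 to 0.29). CDK6, the partner of cyclin D, fell by 1.74 on the log2 scale to a dim level and CCND2 by 1.35-fold. Of 9 tested genes of this list 4 fell and 2 rose, with 1 higher without HGF array 1 or PD-98059 array 1 and none without HGF array 4 or PD-98059 array 3. Of 9 p53 targets and apoptosis genes 2 rose and 1 fell, with 1 higher without HGF array 3 or 4 or without any of the PD-98059 arrays, and 2 lower without HGF array 4. BIRC3, an inhibitor of apoptosis, rose by 3.47-fold on its probe set, with other probe sets at -0.17 to -0.03.

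Ribosome biogenesis genes fell in part. Of 16 tested, 12 fell and 1 rose, with a median of -0.49, and 14 remained higher than control and none lower, with a median of 0.74. NOP56, which guides methylation of ribosomal RNA, was at 11.91, 12.07, 12.09 and 11.75 with HGF and 11.03, 11.24 and 11.25 with PD-98059 (difference -0.78). UTP15 and NOP16 fell by 1.97-fold and 1.64-fold, and PES1 rose by 1.58-fold.

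**Figure D4:**
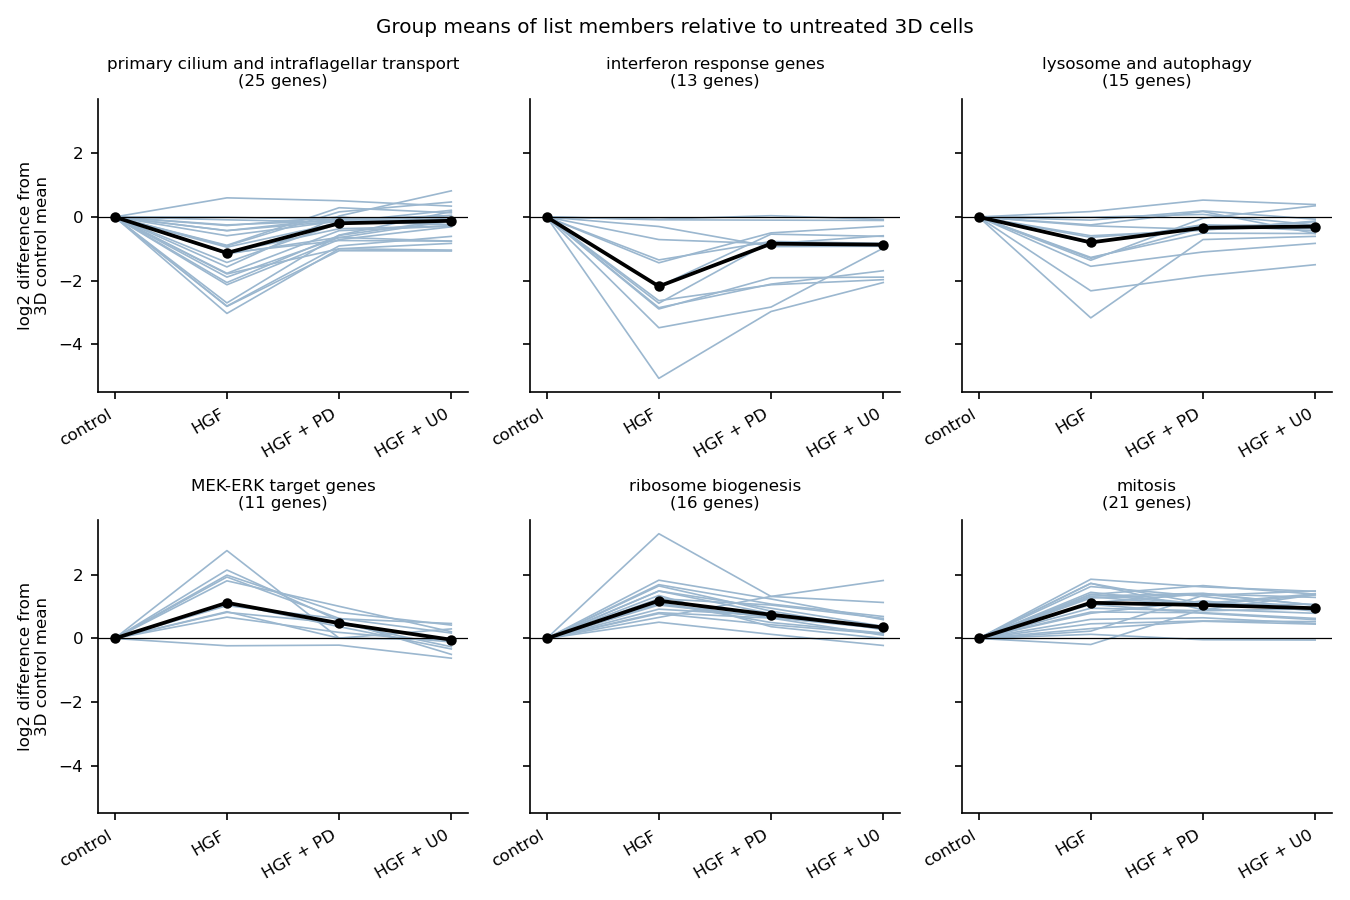
Group mean minus the 3D control mean, in log2, for each tested member of 6 gene lists with HGF, HGF with PD-98059 and HGF with U0126; the black mark is the median of the list. With PD-98059 the median is -0.19 for the cilium list, -0.84 for interferon genes, -0.34 for lysosome genes, 0.48 for MEK-ERK targets, 0.74 for ribosome biogenesis and 1.06 for mitosis.

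The metabolic lists were counted in the same way, where 28.9% of all genes rose and 15.2% fell. Of 23 hypoxia and glycolysis genes 4 rose and 6 fell, with a median of -0.16, and 11 were lower after median centring. ADM, the vasodilator adrenomedullin, rose by 3.04-fold, PDK1, a kinase that restrains pyruvate dehydrogenase, by 2.48-fold and ALDOC by 1.96-fold, while VEGFA, the angiogenic factor, fell by 2.90-fold, with another probe set at -0.04, and HK1 by 1.61-fold. Of 16 cholesterol genes 3 rose and 3 fell. INSIG1, which holds the sterol sensor in the endoplasmic reticulum, fell by 1.57-fold, and DHCR7, a late enzyme of the pathway, rose by 1.69-fold. Against control, 11 of these 16 were higher and none lower. Of 16 genes of ATF4 and the unfolded protein response 5 rose and 5 fell, among them SDF2L1 by 2.00-fold. Of 22 genes of oxidative phosphorylation 6 rose and none fell, with a median of 0.15, and 3 passed on the compared arrays alone. After median centring 1 was lower. Of 10 genes of fatty acid synthesis 3 rose, among them ACACA by 1.59-fold, and none fell. In that list 1 was lower without HGF array 1, after quantile normalization, after median centring and with the mean of each gene's probe sets. For oxidative phosphorylation and fatty acid synthesis the share that rose was near that of all genes.

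The effect of PD-98059 differed between cultures for many genes. The difference in 3D minus that in 2D was higher in 1719 of 7052 genes (24.4%) and lower in 819 (11.6%). Among passing probe sets 64.2% were higher on the deposited values, 52.7% after quantile normalization and 54.5% after median centring. In 2D, PD-98059 raised 1902 genes (27.0%) and lowered 1897 (26.9%). The 2D arrays share no sample with the 3D arrays. In 2D the RNA-quality index was 0.798 to 0.902 with HGF and 1.28 to 1.41 with PD-98059, without overlap. In 3D the means of these groups were 1.68 and 1.65. In 2D the index and the treatment therefore go together. Their parts in the 2D effect, and so in the difference between cultures, cannot be told apart.

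Chemokines are among the genes with an effect in 3D and not in 2D. CXCL8 stayed dim in 2D, at 2.99 to 3.00 with HGF and 3.00 to 3.04 with PD-98059, and the 3D effect exceeded the 2D effect by 5.24 ± 0.24 (adjusted p = 2.02e-14). CCL7 gave 4.87 ± 0.20, with 3.07 to 3.13 and 3.05 to 3.10 in 2D. CCL17, a chemokine for T cells, moved in opposite directions, from 5.81 to 6.20 up to 7.53 to 7.89 in 3D and from 7.70 to 8.36 down to 4.56 to 5.72 in 2D. Of the 13 inflammatory genes 10 had a higher effect in 3D and none a lower one.

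Protease genes also separated the cultures. MMP1 was at 5.27, 6.15, 3.66 and 7.42 in the 2D HGF arrays and at 3.25 to 3.33 with PD-98059, so its fall was larger in 3D by 4.56 on the log2 scale, with -3.90 when 2D HGF array 3 was left out and -5.15 without 2D HGF array 4. TFPI2, an inhibitor of serine proteases, was at 9.45 to 10.15 with HGF and dim at 3.62 to 4.05 with PD-98059 in 2D, and rose by 2.02-fold in 3D, from 7.04 to 7.62 up to 8.04 to 8.50. TIMP1 fell further in 2D, by 9.56 on the log2 scale, and so did CDKN1A, by 6.26. MMP9 was dim in all 8 of these 2D arrays. GPC3 was at 5.01 to 5.50 with HGF and 5.05 to 5.40 with PD-98059 in 2D, against its fall of 15.1-fold in 3D.

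Other genes changed in 2D and not in 3D, and most of them were dim in 3D. ISG20, an exonuclease of the interferon response, was dim in all 7 3D arrays, at 1.68 to 1.75, and in 2D was at 8.64 to 9.08 with HGF and 1.60 to 1.66 with PD-98059. DDX60, a helicase of that response, was at 9.31 to 9.53 and 4.52 to 4.63 in 2D and dim in 3D. GPR18, CLDN10, C9H17orf97 and CLTRN, a collectrin of tubule amino acid transport, were dim in the 7 3D arrays and rose in 2D by 4.92, 4.16, 4.63 and 5.54. STEAP2, a metal reductase, rose in 2D by 4.20, while in 3D it was at 8.03 to 9.29 with HGF and 7.97 to 8.62 with PD-98059. PTGS2, the inducible cyclooxygenase, fell in 2D by 3.34, while in 3D it was at 12.16 to 13.05 with HGF and 12.84 to 13.05 with PD-98059 (difference 0.25 ± 0.25, adjusted p = 0.461); the difference between cultures was 3.59 ± 0.34.

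Of the 30 genes named for the largest changes in 3D, 23 passed the test of the difference between cultures. For some other genes this difference did not pass. ERRFI1 fell by 2.79 in both, with a difference between cultures of 0.001 (95% interval -0.37 to 0.37). CDH2 (0.10, 95% interval -0.58 to 0.77), CYP1B1 (-0.35, -0.95 to 0.26), FABP1 (-0.36, -1.07 to 0.34) and EREG (-0.61, -1.37 to 0.16) did not pass the test either. These intervals bound the difference and do not show that the effect was equal in both cultures. DUSP5 fell by 3.49 in 2D and CCND1 by 2.28, both more than in 3D (differences of 1.91 ± 0.29 and 0.98 ± 0.17). Of the 11 MEK-ERK targets 6 had a higher value of the effect in 3D than in 2D, that is a smaller fall, and none a lower one. Hypoxia and glycolysis genes had 16 of 23 higher and 1 lower, and in 2D 21 of the 23 fell. The cilium list had 2 of 25 higher and 5 lower, and in 2D 19 of the 25 rose.

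**Figure D5:**
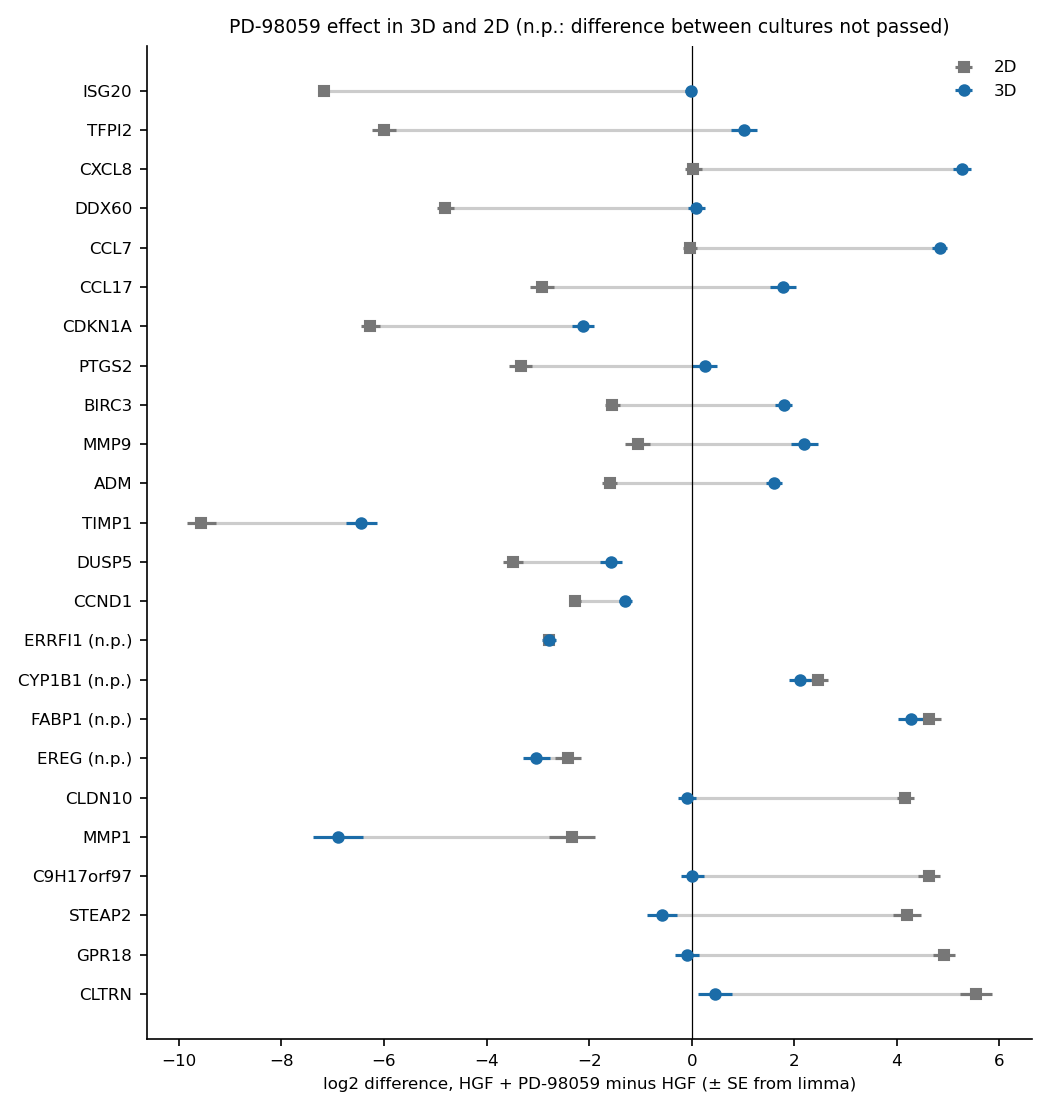
Log2 difference of HGF with PD-98059 minus HGF, with its standard error from limma, in 3D and in 2D for the genes of the comparison of cultures; n.p. marks genes whose difference between cultures did not pass. CXCL8 and CCL7 lie near 0 in 2D only, ISG20 and GPR18 near 0 in 3D only, and ERRFI1 has the same value in both.

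U0126 was given to HGF-treated cells in the same culture. The compounds differ in structure, a flavone and a butadiene, and the labels give no dose, so the differences are those between these arrays. This is 1 pair of compounds, tested over all probe sets. U0126 arrays were higher than PD-98059 arrays in 219 of 7052 genes (3.11%) and lower in 698 (9.90%). Over probe sets the counts were 495 and 1462, and single arrays moved them: 274 and 971 without PD-98059 array 2, 301 and 609 without PD-98059 array 3, 286 and 780 without U0126 array 1, and 375 and 730 without U0126 array 2. With array weights they were 1671 and 3776. The share of higher probe sets among those that passed was 25.3% on the deposited values and 39.9% after quantile normalization. Of the 11 MEK-ERK targets 6 were lower with U0126 and none higher. DUSP5 was at 7.36, 7.34 and 7.10 with U0126, 1.07 below PD-98059 (SE 0.23, adjusted p = 0.00281), and DUSP6 was 0.74 below (SE 0.11, adjusted p = 3.62e-05).

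The largest of these differences was in DKK3, which U0126 did not raise: its arrays were at 4.42, 4.32 and 4.79, a difference of -3.82 ± 0.27 (adjusted p = 6.19e-10) from PD-98059. TIMP1 was at 4.80, 4.97 and 3.68 with U0126, 2.74 lower than with PD-98059, and MMP13 at 8.21, 8.16 and 8.63, 2.55 lower. SNAI2 was at 9.25, 9.27 and 9.55, lower by 1.78. HEPH, a copper oxidase of iron export, and FGFBP1, which carries fibroblast growth factors, were lower by 2.44 and 1.85. CXCL8 was higher with U0126, at 10.75, 10.68 and 11.13, by 2.43 ± 0.19, and CXCL10, a chemokine of the interferon response, was at 6.01 to 6.23 with U0126 and dim at 3.18 to 4.05 with PD-98059. CLTRN was at 6.68 to 7.94 with U0126 and 3.97 to 4.21 with PD-98059, and BLNK, DACH1 and DCDC2 were higher by 2.98, 2.50 and 2.32.

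Other members of the large changes had like values with both compounds. MMP1 was at 3.29 to 3.31 with U0126 (difference -0.08, 95% interval -1.14 to 0.98), CYP1B1 at 13.46 to 14.31 (-0.02, -0.50 to 0.45), and CYP4A11 at 12.88 to 13.07 (0.00, -0.52 to 0.53). CDKN1A (0.14, -0.31 to 0.60), GGT1 (-0.13, -0.37 to 0.12), CCL7 (0.17, -0.15 to 0.49), CDH2 (-0.20, -0.73 to 0.34) and FN1 (-0.004, -0.31 to 0.30) did not pass either. These intervals bound the difference and do not show that the compounds act alike. Ribosome biogenesis genes were lower with U0126 in 12 of 16 and higher in none, and cholesterol genes lower in 10 of 16 and higher in none. Of 21 mitosis genes none passed limma's test, with 3 lower and none higher at an unadjusted p below 0.05, and of 25 replication genes 7 were lower.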

How the data were processed

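Total RNA was isolated, amplified by in vitro transcription and hybridised as biotin-labelled RNA to Affymetrix canine arrays, 1 array per sample, per the labels' protocols. The values, as deposited by the authors, are on a log2 scale, with 1 value per probe set and array. The submitters' processing notes name MAS5, Affymetrix Expression Console 1.1, GCRMA and Partek 6.6, without the role or order of each. Background and scaling were thus set upstream and were not repeated here. Low values are compressed by such methods, so differences from a dim level are less certain in size.

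The table holds 43035 probe sets. Of 42924 that are not controls (111 are), 16571 were at log2 5 or more in at least 3 of 29 arrays and were tested: 12186 name 1 gene, 238 several and 4147 none. Gene names come from the platform's annotation, updated by gene identifier. Each of 7052 genes is given by its tested probe set with the highest mean. Of these genes 3633 had more than 1 tested probe set, and in 24 of them the calls were opposite. The model was fitted in limma 3.58.1 (R 4.3.3) on means of 8 groups over 29 arrays, with eBayes and a trend, two-sided, with Benjamini-Hochberg adjustment over 16571 probe sets within each comparison and a threshold of 0.05. Tested on simulated data for the effect of PD-98059 in 3D (200 changed of 16571 probe sets), the fit recovered 49.3%, 83.6% and 97% of changes of 0.5, 1 and 2 log2 units, and 5.56% of its calls were false. The simulation gave all groups the same spread and changed far fewer probe sets than passed in the real data. These rates therefore need not hold for the real arrays, whose 3D HGF group was less alike.

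Named genes are the 15 largest passing differences in each direction with groups that do not overlap and a level of at least log2 6, the 6 largest for each of the other comparisons, up to 4 passing members per direction of each of 30 gene lists, and a fixed set of 39 genes, of which 25 were tested. A few further members that did not pass are given because they are in that set. The comparison, the lists and this rule were chosen with earlier results of these data known. Alternatives varied the filter, normalization, variance model, array weights, replicate block, RNA quality, arrays in the fit and each array left out, and a cutoff of 2-fold was also set on the main fit. The number of arrays limits the precision.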

Additional observations from a re-analysis of the deposited data

Results flagged for a closer look

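Among the genes described above, 19 are listed here for an effect of PD-98059 in 3D minus that in 2D that passed limma's test, as did 1719 higher and 819 lower over all genes. On the log2 scale the difference was 7.15 for ISG20, 7.01 for TFPI2, 5.24 for CXCL8, 4.89 for DDX60, 4.87 for CCL7, 4.70 for CCL17, 4.15 for CDKN1A, 3.59 for PTGS2, 3.25 for MMP9, 3.12 for TIMP1, 1.91 for DUSP5 and 0.98 for CCND1. It was -5.09 for CLTRN, -5.01 for GPR18, -4.79 for STEAP2, -4.62 for C9H17orf97, -4.56 for MMP1, -4.25 for CLDN10 and -3.94 for GPC3.

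In 16 of 312 groups of 4 arrays, 1 array lay far from the other 3 by Dixon's criterion, and chance gives about 1 in 20. Among the 3D HGF arrays, array 1 was low for ASPM (7.25), DUSP5 (9.21) and ISG15 (7.84) and high for CLTRN (4.06) and CXCL8 (3.40), array 2 was low for DACH1 (2.28), and array 4 was low for PSMB9 (9.54) and high for ATP6V1A (7.27). Among the control arrays, array 2 was high for JUN (10.41) and low for NQO1 (12.67), array 3 was high for CDK6 (4.54) and array 4 was high for CCND2 (11.85). In 2D, HGF array 2 was low for MMP9 (3.41) and C9H17orf97 (1.76), HGF array 4 was high for GPR18 (2.47), and PD-98059 array 3 was high for MMP9 (3.12).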

How the results depend on the processing

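Of 182 results on single genes under 3345 combinations of gene and alternative, 3120 kept their direction and their side of the threshold, 214 kept the direction and lost the call, 10 gained it and 1 reversed: PTGS2 was at -0.05 without HGF arrays 1 and 4, against 0.25. These combinations include a cutoff of 2-fold on the main fit. Part of the 214 lost calls are therefore only changes smaller than 2-fold. For the effect of PD-98059 in 3D, counts of probe sets ranged over arrays left out from 3616 to 4405 higher and 1964 to 2798 lower, were 4368 and 2480 with the replicate block, 3954 lower after median centring, 2869 and 1496 with the compared arrays alone, and 1430 and 635 at 2-fold or more. At that size they were 674 and 690 against control, 1592 and 693 for 3D minus 2D, 129 and 92 for U0126 minus PD-98059 and 1639 and 2340 for HGF. For U0126 minus PD-98059, 971 were lower without a filter, 751 higher after quantile normalization, 1671 higher and 3776 lower with array weights, and 926 lower with the compared arrays alone; arrays left out gave 274 to 529 higher and 609 to 1614 lower. HGF raised 8717 without a filter. The cause of these shifts was not tested. Deviations of same-numbered HGF and PD-98059 arrays correlated at -0.138, 0.315 and -0.083, and those of unlike-numbered arrays at -0.464 to 0.404. With so few arrays these values cannot decide whether replicate numbers pair the arrays. Dim levels limit the sizes of the largest differences.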
